A study of Mus musculus with 4 samples.

Results

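Exosomes are small vesicles that cells release and that carry RNA, microRNAs (miRNAs) among it. The miR-10, miR-99/miR-100 and miR-125 families were followed in exosomes from the epithelium of the small intestine (SI-Exos) and from serum. Their 7 members, mmu-miR-10a-5p, mmu-miR-10b-5p, mmu-miR-99a-5p, mmu-miR-99b-5p, mmu-miR-100-5p, mmu-miR-125a-5p and mmu-miR-125b-5p, were chosen by name, with earlier results of these data known. All 7 were present among the 373 miRNAs of the SI-Exos table and the 611 of the serum table, which together held 668. The material came from male C57BL/6J mice on standard chow with no other treatment, aged 3 months or 18 months, and each source at each age was 1 library. The labels do not say whether a library was 1 mouse or a pool. The comparison by age therefore has no replicate, no test across animals was possible, and every interval given is a 95% interval of counting error alone. Amounts are read counts, or counts scaled to the miRNA reads of the library (CPM), and age ratios are 3 months over 18 months.

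A miRNA guides the silencing complex to messenger RNAs mainly through its seed, bases 2 to 8 from the 5′ end, so miRNAs with the same seed can share targets. Members of the miR-10 family lie in the Hox clusters, whose genes set position along the body axis. The miR-99/miR-100 and miR-125 families lie together in conserved clusters with a let-7 miRNA between them, and miR-125b is the mouse counterpart of lin-4, the miRNA of developmental timing in worms. All 7 are cut from the 5′ arm of their hairpins.

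The mature sequences are shown because the 3 seeds define the families compared here and because some members differ by 1 base. Capitals mark the seed, and each sequence, read from the deposited tables, was identical to the RefSeq mature entry of that name.
mmu-miR-10a-5p: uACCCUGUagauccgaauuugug
mmu-miR-10b-5p: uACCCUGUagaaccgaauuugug
mmu-miR-99a-5p: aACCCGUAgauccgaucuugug
mmu-miR-99b-5p: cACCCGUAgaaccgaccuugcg
mmu-miR-100-5p: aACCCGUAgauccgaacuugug
mmu-miR-125a-5p: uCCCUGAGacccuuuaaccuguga
mmu-miR-125b-5p: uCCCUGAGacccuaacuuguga

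Positions are counted from 1 at the 5′ end, with the base of the first-named miRNA first. miR-10a-5p and miR-10b-5p differed by U12A, and miR-99a-5p and miR-100-5p by U16A. How a read with a sequencing error or a trimmed end was assigned within these pairs is not stated in the sources, so the split between them is less certain than their sum. miR-99a-5p differed from miR-99b-5p at 4 positions, A1C, U11A, U16C and U21C. miR-125a-5p and miR-125b-5p shared their first 13 bases and then diverged, with lengths of 24 and 22 bases. The miR-10 and miR-99/miR-100 seeds are different words, but the members share bases further along. The longest run common to miR-10a-5p and miR-100-5p was GUAGAUCCGAA, and that common to miR-10b-5p and miR-99b-5p was GUAGAACCGA. The centre of miR-10b-5p and of miR-99b-5p thus has the same letters, whereas miR-10a-5p, miR-99a-5p and miR-100-5p share the other form.

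The hairpins all lie on the + strand of GRCm38, with positions from GENCODE M21. Mir10a, at chr11:96317165-96317274, overlaps no other annotated gene and starts 1102 bases before Hoxb4. Mir10b, at chr2:74726070-74726137, is in an intron of Hoxd3 and Hoxd4. Mir99a, at chr16:77598936-77599000, and Mir125b-2, at chr16:77646273-77646343, are both in introns of the non-coding host gene Mir99ahg. Mir100, at chr9:41531425-41531504, and Mir125b-1, at chr9:41581926-41582002, are both in introns of the non-coding gene 3110039I08Rik. Mir125b-1 also overlaps an exon of Gm28119, and Mir125b-2 an exon of C130023A14Rik, both on the same strand. Mir100 overlaps an exon of Gm48742 on the other strand. Mir99b, at chr17:17830188-17830257, is in an intron of the protein-coding gene Spaca6. Mir125a, at chr17:17830812-17830879, overlaps an exon of a Spaca6 transcript, with no annotated coding sequence or UTR at that place. Mature miR-125b-5p is the same from Mir125b-1 and Mir125b-2, so its reads cannot be assigned to either locus.

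SI-Exos held 212215 miRNA reads at 3 months and 71353 at 18 months, with 326 and 258 miRNAs detected. Serum exosomes held 832002 and 778237, with 486 and 496 detected. One read therefore equalled 4.71 and 14.0 CPM in SI-Exos and 1.20 and 1.28 CPM in serum, and a count of 0 allows up to 3 reads. The total reads implied by the authors' RPM lay between 14129502 and 18606950 per library, but miRNA reads made up 1.14% and 0.411% of them in SI-Exos and 5.89% and 5.31% in serum. By RPM, each SI-Exos age ratio is therefore 2.78 times the CPM ratio, and each serum ratio 1.11 times. The intestinal label was checked against 9 epithelial miRNAs (miR-192, miR-194, miR-215, miR-375 and the miR-200 family). All 9 were listed in SI-Exos, summing to 276107 and 85617 CPM at 3 and 18 months, but miR-200b-3p had 0 reads at 18 months. All 9 were also listed in serum, so being listed does not tell the sources apart. Their serum sums were lower, at 17095 and 7212 CPM.

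The 7 members made up 0.727% of miRNA reads in SI-Exos at 3 months (exact binomial interval 0.691 to 0.764) and 1.77% at 18 months (1.68 to 1.87). In serum exosomes the order of the ages was the other way, with 1.69% at 3 months (1.66 to 1.71) and 0.962% at 18 months (0.941 to 0.984). All 7 were detected in all 4 libraries, and the leading member differed between sources. In SI-Exos at 3 months, miR-100-5p (2031 CPM, rank 45 of 326), miR-99a-5p (1956 CPM, rank 46) and miR-10a-5p (1772 CPM, rank 49) led, and the counting intervals of neighbours in this order overlapped. miR-99b-5p followed at 810 CPM, miR-10b-5p at 358 CPM, miR-125b-5p at 254 CPM and miR-125a-5p at 84.8 CPM, and of these only the intervals of miR-10b-5p and miR-125b-5p overlapped. At 18 months miR-100-5p alone led with 10133 CPM (rank 21 of 258), above miR-99a-5p at 3167 CPM and miR-99b-5p at 1850 CPM. miR-125b-5p (1065 CPM) and miR-10a-5p (995 CPM) then overlapped, as did miR-10b-5p (266 CPM) and miR-125a-5p (238 CPM).

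In serum exosomes miR-99a-5p led at both ages, with 11298 CPM at 3 months (rank 13 of 486) and 6400 CPM at 18 months (rank 22 of 496). miR-10a-5p came next, with 2246 and 1352 CPM, and its interval overlapped no other member's at either age. At 3 months miR-99b-5p (1234 CPM), miR-100-5p (1061 CPM), miR-10b-5p (742 CPM) and miR-125b-5p (274 CPM) followed without overlap. At 18 months miR-10b-5p (591 CPM) overlapped both miR-100-5p (649 CPM) and miR-99b-5p (490 CPM), which were apart from each other, and miR-125b-5p (103 CPM) lay below them. miR-125a-5p was last in every library, with 13.2 and 39.8 CPM in serum, from 11 and 31 reads.

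**Figure D1:**
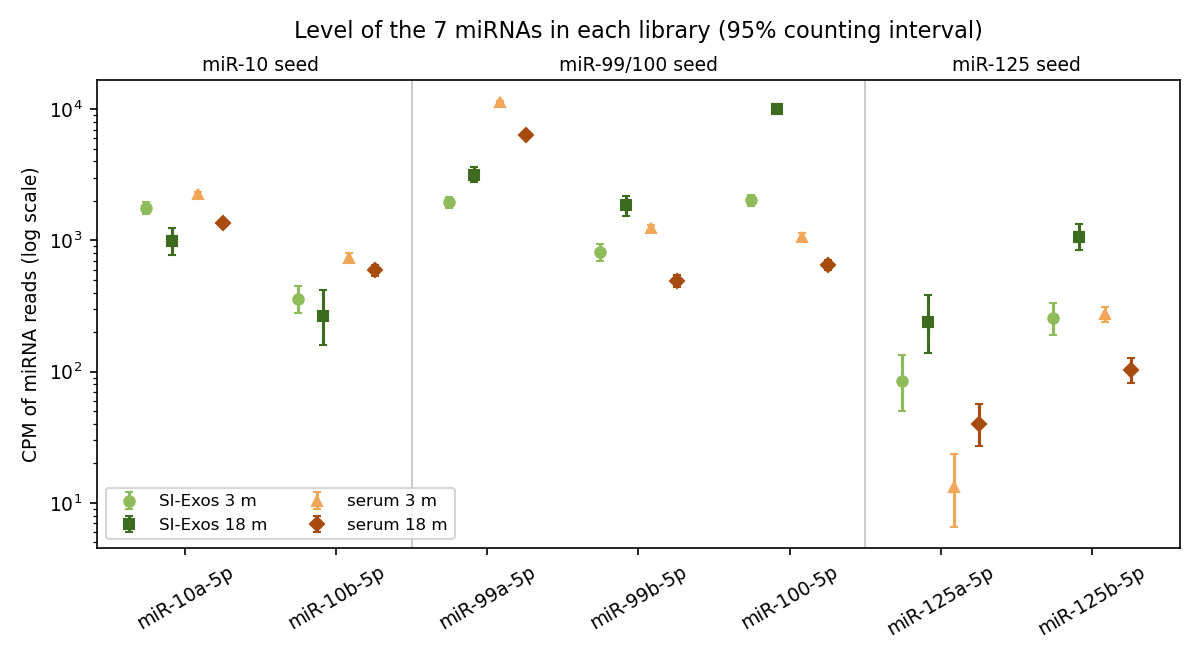
The level of each of the 7 miRNAs (vertical axis, CPM of miRNA reads, log scale) is plotted for SI-Exos and serum exosomes at 3 and 18 months, 1 point per library, with bars for the 95% counting interval. miR-100-5p stands apart in SI-Exos at 18 months (10133 CPM) and miR-99a-5p in serum exosomes (11298 and 6400 CPM), while miR-125a-5p is the lowest point in each library.

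The first comparison asked how the families differed between young and aged SI-Exos. By CPM the miR-99/miR-100 and miR-125 members were lower at 3 months than at 18 months. By RPM, however, miR-99a-5p turned direction, and miR-99b-5p and miR-125a-5p were not distinguishable from 1. The miR-10 members were not lower by either scaling. A member was called where its ratio was at least 2-fold and its interval left out 1, among miRNAs that reached 10 reads at one of the ages. By this rule 0 of the 7 members were called higher at 3 months, 4 were called lower and 3 were not called. Among all 214 miRNAs measured, 32.7% were called higher and 29.4% lower. The median log2 ratio of the 7 was -1.19, beside 0.45 over all 214. These calls rest on CPM: with DESeq2 size factors 1 member was called higher and 2 lower (46.7% and 23.4% of all), and by the authors' RPM 2 were called higher and 0 lower (61.2% and 14.5% of all).

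In SI-Exos miR-100-5p had 431 reads at 3 months and 723 at 18 months, that is 2031 and 10133 CPM. Its level was 4.99 times as high at 18 months (4.42 to 5.63), and by RPM the ratio of 3 to 18 months was 0.556, in the same direction but no longer called. miR-99b-5p had 172 and 132 reads, or 810 and 1850 CPM, 2.28 times as high at 18 months (1.81 to 2.88). By RPM the ratio of 3 to 18 months was 1.22 (0.964 to 1.54), on the other side of 1 but not distinguishable from it. miR-99a-5p, the member closest to miR-100-5p in sequence, had 415 and 226 reads, or 1956 and 3167 CPM. It was 1.62 times as high at 18 months (1.37 to 1.91), under the 2-fold limit, and its direction turned by RPM, with a ratio of 1.71 (1.45 to 2.02). The 3 members of this seed thus lay in the same direction by CPM but by different amounts.

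The miR-125 members had few reads in SI-Exos. miR-125b-5p had 54 reads at 3 months and 76 at 18 months, 254 and 1065 CPM, and was 4.19 times as high at 18 months (2.91 to 6.05). miR-125a-5p had 18 and 17 reads, 84.8 and 238 CPM, and was 2.81 times as high at 18 months (1.36 to 5.78). Both were called by CPM, whereas by RPM the ratios of 3 to 18 months were 0.663 and 0.988 and neither was called.

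The miR-10 members lay on the other side of 1 in SI-Exos. miR-10a-5p had 376 reads at 3 months and 71 at 18 months, 1772 and 995 CPM, with a ratio of 1.78 (1.38 to 2.33). The interval left out 1, but the ratio was under 2-fold by CPM and reached 4.94 by RPM. miR-10b-5p had 76 and 19 reads, 358 and 266 CPM, with a ratio of 1.34 (0.805 to 2.36), which was not distinguishable from 1 at this depth by CPM and was 3.73 by RPM. Both miR-10 members were thus above 1 by either scaling, and both differed in direction from miR-100-5p and miR-125b-5p by either scaling.

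Of the 9 epithelial miRNAs summed above, 6 were called higher and 0 lower at 3 months, beside 32.7% and 29.4% of all. Their median log2 ratio was 1.92. miRNAs of other cell types also differed between the 2 SI-Exos libraries. The 4 red blood cell miRNAs (miR-451a, miR-486a and the miR-144 arms) summed to 6305 and 37742 CPM at 3 and 18 months, with miR-144-5p at 0 reads at 3 months. The 2 endothelial arms of miR-126a summed to 7502 and 12571 CPM, and the 5 myeloid and lymphoid miRNAs to 570 and 1387 CPM, with miR-142a-5p at 0 reads at 3 months and miR-155-5p at 0 at 18 months. Of the 6 mesenchymal and smooth muscle miRNAs 5 were listed, summing to 75457 and 35766 CPM, and 1 was called higher (miR-143-3p) and 2 lower (miR-199a-5p and miR-214-3p) at 3 months. The 3 striated muscle miRNAs summed to 4802 and 1514 CPM, with miR-1a-3p called higher at 3 months and miR-206-3p and miR-133a-3p lower. The liver miRNA miR-122-5p had 245 and 350 CPM and was not called. By CPM the red blood cell, endothelial, and myeloid and lymphoid sums thus lay in the direction of the 4 called members. Of these sums, by RPM only that of the red blood cell miRNAs was higher at 18 months. In each of these lists 2 miRNAs were measured, and 2, 1 and 2 of them were called lower at 3 months. The endothelial sum was mainly miR-126a-3p (7398 and 12333 CPM), which was not called. The epithelial, mesenchymal and striated muscle sums lay in the opposite direction. The mesenchymal sum was mainly miR-143-3p (74170 and 32556 CPM) and the striated muscle sum mainly miR-1a-3p (4722 and 967 CPM). By median log2 ratio of CPM these 2 lists, at -1.39 and -2.24, lay in the direction of the 4 called members. By RPM only the striated muscle median stayed on that side. The part of these cell types in the result was not tested. Fewer vesicles of a cell type and less of a miRNA per vesicle cannot be told apart in such libraries.

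The same question was asked of serum exosomes, where by CPM 6 of the 7 members had ratios above 1. By the same rule 2 members were called higher at 3 months, 1 lower and 4 not called, while 18.3% of all 251 miRNAs measured were called higher and 25.9% lower. The median log2 ratio of the 7 was 0.73, beside -0.38 over all 251. By RPM and with DESeq2 size factors the same 3 members were called in the same directions, beside 20.3% and 19.9% of all called higher and 20.7% lower with either.

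miR-125b-5p had 228 reads at 3 months and 80 at 18 months in serum exosomes, 274 and 103 CPM, with a ratio of 2.67 (2.06 to 3.48). miR-99b-5p had 1027 and 381 reads, 1234 and 490 CPM, with a ratio of 2.52 (2.24 to 2.84). These were the members called higher, and both had been called lower at 3 months by CPM in SI-Exos. Of all 156 miRNAs measured in both sources, 24 (15.4%) were called in opposite directions in this way. miR-125a-5p went the other way in serum, with 11 and 31 reads, 13.2 and 39.8 CPM, and was 3.01 times as high at 18 months (1.47 to 6.64). The 2 seed-sharing miR-125 members thus had non-overlapping intervals on opposite sides of 1 in serum exosomes.

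Of the members not called in serum, miR-99a-5p was the best counted, with 9400 and 4981 reads, 11298 and 6400 CPM, and a ratio of 1.77 (1.71 to 1.83). miR-10a-5p had 1869 and 1052 reads, 2246 and 1352 CPM, and a ratio of 1.66 (1.54 to 1.79). miR-100-5p had 883 and 505 reads, 1061 and 649 CPM, and a ratio of 1.64 (1.46 to 1.83). miR-10b-5p had 617 and 460 reads, 742 and 591 CPM, and a ratio of 1.25 (1.11 to 1.42). All 4 intervals left out 1 and all 4 ratios were under 2-fold, so these members were higher at 3 months beyond counting error but by less than the limit.

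In the same serum libraries, miR-122-5p, the liver miRNA, made up 384405 CPM in the young library and 26509 CPM in the aged one, and the 4 red blood cell miRNAs 219662 and 538335 CPM. With sums that left out the 5 most abundant miRNAs, 5 members were called higher, beside 26.7% of all. The 9 epithelial miRNAs summed to 17095 and 7212 CPM, the mesenchymal and smooth muscle miRNAs to 42445 and 17517 CPM, the endothelial arms to 19764 and 25377 CPM, the myeloid and lymphoid miRNAs to 4430 and 9384 CPM, and the striated muscle miRNAs to 6969 and 7273 CPM. Within the epithelial list 1 was called higher (miR-192-5p) and 4 lower at 3 months, beside 18.3% and 25.9% of all 251 miRNAs measured. miR-192-5p alone had 15846 and 4132 CPM, and the median log2 ratio of the list was -0.39. The mesenchymal sum was mainly miR-143-3p (41839 and 16875 CPM), with 2 of that list called higher and 1 lower. The part of these cell types in the members' ratios was not tested.

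**Figure D2:**
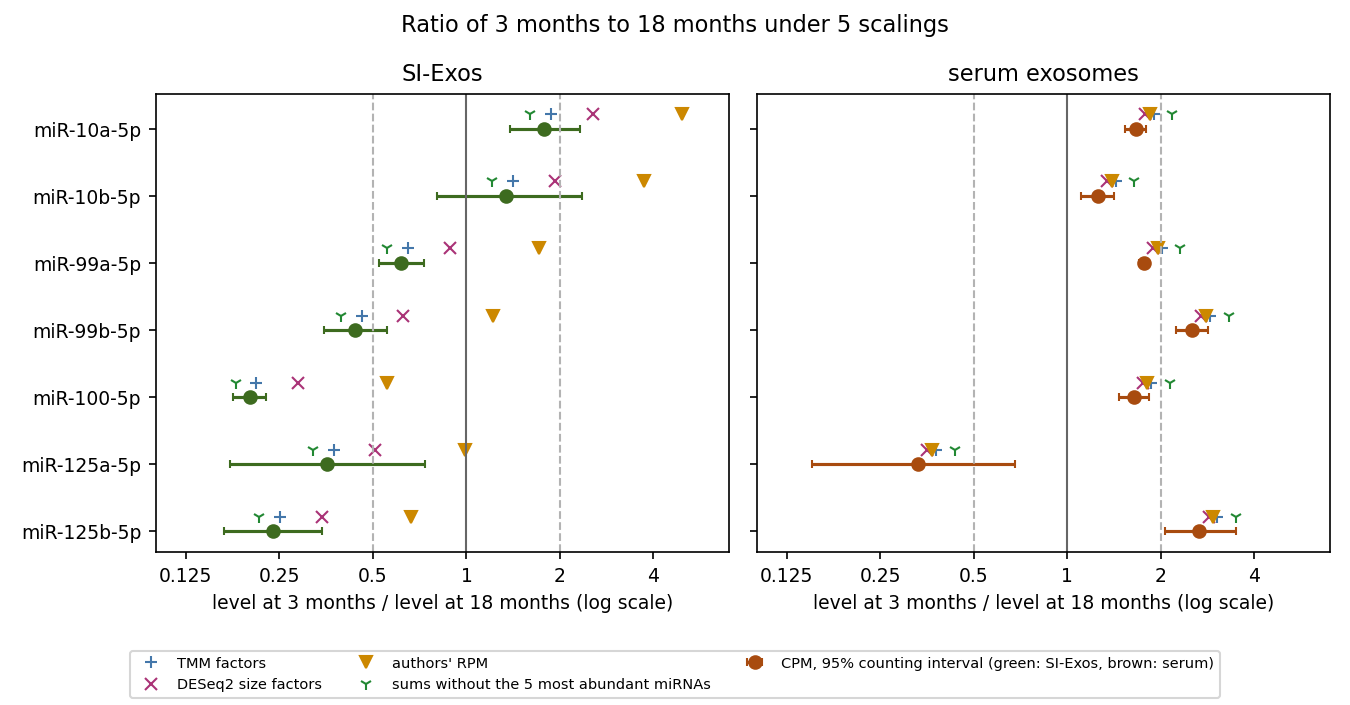
The ratio of the level at 3 months to that at 18 months (horizontal axis, log scale) is plotted for each of the 7 miRNAs in SI-Exos and serum exosomes, as CPM with the 95% counting interval and, above each, under 4 other scalings; solid and dashed lines mark a ratio of 1 and of 2-fold. In SI-Exos the order from miR-100-5p (0.200) to miR-10a-5p (1.78) stays while RPM moves every point by 2.78 times, and in serum miR-125a-5p (0.332) alone lies below 1 under each scaling drawn, the factor that moves the points reaching 1.31 without the 5 most abundant miRNAs.

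Summing the reads of each seed gave the comparison of the 3 families. In SI-Exos the miR-10 seed had 452 reads at 3 months and 90 at 18 months, 2130 and 1261 CPM, with a ratio of 1.69 (1.34 to 2.14). The miR-99/miR-100 seed had 1018 and 1081 reads, 4797 and 15150 CPM, and was 3.16 times as high at 18 months (2.90 to 3.44). The miR-125 seed had 72 and 93 reads, 339 and 1303 CPM, and was 3.84 times as high at 18 months (2.79 to 5.30). The intervals of the miR-99/miR-100 and miR-125 seeds overlapped, and that of the miR-10 seed lay apart from both. By RPM the ratios of 3 to 18 months were 4.69 for the miR-10 seed (3.73 to 5.95), 0.879 for the miR-99/miR-100 seed (0.806 to 0.959) and 0.723 for the miR-125 seed (0.524 to 0.994). The miR-99/miR-100 members lay on both sides of 1 by RPM, at 1.71 for miR-99a-5p, 1.22 for miR-99b-5p and 0.556 for miR-100-5p. In serum exosomes the ratios of 3 to 18 months were 1.54 for the miR-10 seed (1.44 to 1.64), 1.80 for the miR-99/miR-100 seed (1.75 to 1.86) and 2.01 for the miR-125 seed (1.60 to 2.55). There all 3 seeds were higher at 3 months, with the miR-10 and miR-99/miR-100 intervals apart from each other and the miR-125 interval overlapping both.

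The shares of the 7 members' reads that each seed took do not depend on how libraries are scaled. In SI-Exos the miR-10 seed took 29.3% at 3 months (27.0 to 31.7) and 7.12% at 18 months (5.76 to 8.68), an odds ratio of 5.41 (4.24 to 6.96). The miR-99/miR-100 seed took 66.0% (63.6 to 68.4) and 85.5% (83.5 to 87.4), and the miR-125 seed 4.67% (3.67 to 5.84) and 7.36% (5.98 to 8.94). The miR-10 seed thus made up more of the family reads in young SI-Exos than in aged SI-Exos under any scaling. In serum exosomes the shares moved less, with 17.7% and 20.2% for miR-10 (odds ratio 0.851, 0.792 to 0.915), 80.6% and 78.3% for miR-99/miR-100 (1.15, 1.07 to 1.23), and 1.70% and 1.48% for miR-125 (1.15, 0.914 to 1.46). The miR-10 share was thus slightly lower at 3 months in serum, beyond counting error, and the miR-125 share was not distinguishable between the ages.

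Within the miR-99/miR-100 seed, the leading member was miR-100-5p in SI-Exos and miR-99a-5p in serum, and at 3 months in SI-Exos these 2 were not distinguishable. In SI-Exos miR-100-5p took 42.3% of the family's reads at 3 months (39.3 to 45.4) and 66.9% at 18 months (64.0 to 69.7). miR-99a-5p took 40.8% (37.7 to 43.9) and 20.9% (18.5 to 23.5), and miR-99b-5p 16.9% and 12.2%. In serum miR-99a-5p took 83.1% and 84.9%, miR-100-5p 7.81% and 8.61%, and miR-99b-5p 9.08% and 6.49%. The number of miR-99a-5p reads per miR-100-5p read was 0.963 (0.839 to 1.10) and 0.313 (0.268 to 0.363) in SI-Exos at 3 and 18 months, and 10.6 (9.93 to 11.4) and 9.86 in serum. Between the ages this ratio differed by 3.08 times in SI-Exos (2.51 to 3.79) and was not distinguishable in serum, at 1.08 times (0.960 to 1.21). These are the members that differ only by U16A, so the split depends on that base being read.

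In the miR-10 pair miR-10a-5p led in every library. It took 83.2% of the pair's reads in SI-Exos at 3 months (79.4 to 86.5) and 78.9% at 18 months (69.0 to 86.8), and 75.2% and 69.6% in serum. The odds ratio of 3 to 18 months was 1.32 in both sources, with an interval of 0.710 to 2.38 in SI-Exos and of 1.15 to 1.53 in serum. Only the serum interval left out 1.

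Within the miR-125 seed, miR-125a-5p took 18 of 72 reads in SI-Exos at 3 months and 17 of 93 at 18 months, with an odds ratio of 1.49 (0.657 to 3.38). In serum it took 4.60% at 3 months (2.32 to 8.09) and 27.9% at 18 months (19.8 to 37.2), odds 7.98 times as high at 18 months (3.70 to 18.5). Put as reads, there were 20.7 reads of miR-125b-5p per read of miR-125a-5p in serum at 3 months and 2.58 at 18 months, and 3.00 and 4.47 in SI-Exos. The young serum library was thus the one in which the pair was most unequal, from 11 reads of miR-125a-5p.

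**Figure D3:**
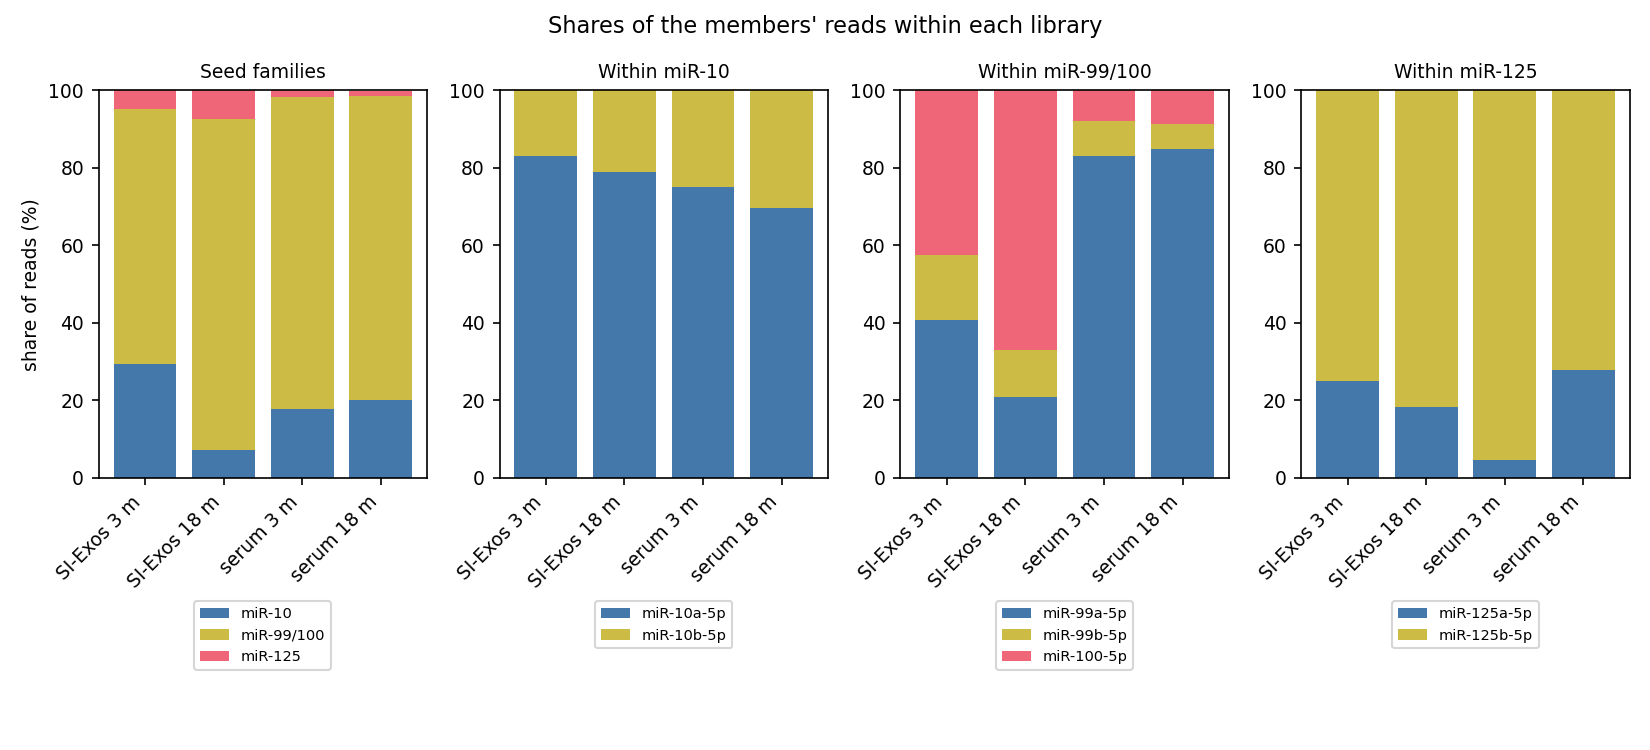
Stacked bars give the share (vertical axis, %) of the 7 members' reads taken by each seed family, and of each family's reads taken by each member, in the 4 libraries. The miR-10 share goes from 29.3% to 7.12% between 3 and 18 months in SI-Exos, miR-99a-5p takes over 80% of its family only in the serum libraries, and miR-125a-5p takes its smallest share, 4.60%, in serum at 3 months.

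The hairpins of 5 members share a locus with a let-7 miRNA, a family known as a brake on growth and a mark of differentiated cells. Mirlet7c-1 starts 721 bases and Mir125b-2 47337 bases from the start of Mir99a. Mirlet7a-2 starts 5291 bases and Mir125b-1 50501 bases from the start of Mir100. Mirlet7e starts 164 bases and Mir125a 624 bases from the start of Mir99b. let-7a-5p and let-7c-5p also come from hairpins outside these loci, so their reads are not those of the clusters alone.

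In SI-Exos let-7c-5p and let-7a-5p lay opposite to their neighbours by CPM. let-7a-5p had 54110 and 18472 CPM at 3 and 18 months, a ratio of 2.93, while miR-100-5p was 4.99 times as high at 18 months. Reads of let-7a-5p per read of miR-100-5p were thus 26.6 at 3 months and 1.82 at 18 months, which differ by 14.6 times (12.8 to 16.7) under any scaling. For let-7c-5p, with 84494 and 37644 CPM, reads per read of miR-99a-5p were 43.2 and 11.9, which differ by 3.64 times (3.06 to 4.31). In serum both pairs went the other way. let-7a-5p per miR-100-5p read was 8.05 at 3 months and 19.9 at 18 months, and let-7c-5p per miR-99a-5p read 0.818 and 2.43, so that the ratios of the ages were 0.405 (0.361 to 0.454) and 0.336 (0.321 to 0.352).

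The miR-99b cluster is the shortest of the 3. Reads of miR-99b-5p per read of let-7e-5p were 1.91 and 3.00 in SI-Exos, a ratio of the ages of 0.638 (0.405 to 0.994), and 15.3 and 7.06 in serum, a ratio of 2.17 (1.46 to 3.22). Reads of miR-99b-5p per read of miR-125a-5p were 9.56 and 7.76 in SI-Exos and 93.4 and 12.3 in serum. The ratio of the ages of this last pair was 1.23 in SI-Exos (0.571 to 2.64) and 7.58 in serum (3.67 to 16.9), so that these neighbours were not distinguishable by age in SI-Exos and were in serum.

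miR-100-5p and miR-125b-5p kept a like balance in SI-Exos, with 7.98 reads of the first per read of the second at 3 months and 9.51 at 18 months, a ratio of the ages of 0.839 (0.572 to 1.24). In serum they had 3.87 and 6.31 reads, a ratio of 0.614 (0.459 to 0.815). miR-99a-5p per read of miR-125b-5p was 7.69 and 2.97 in SI-Exos, a ratio of 2.58 (1.73 to 3.87), and 41.2 and 62.3 in serum, a ratio of 0.662 (0.506 to 0.860). Of the 2 neighbours of a miR-125b hairpin, it was thus miR-100-5p whose age difference in SI-Exos was not distinguishable from that of miR-125b-5p.

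**Figure D4:**
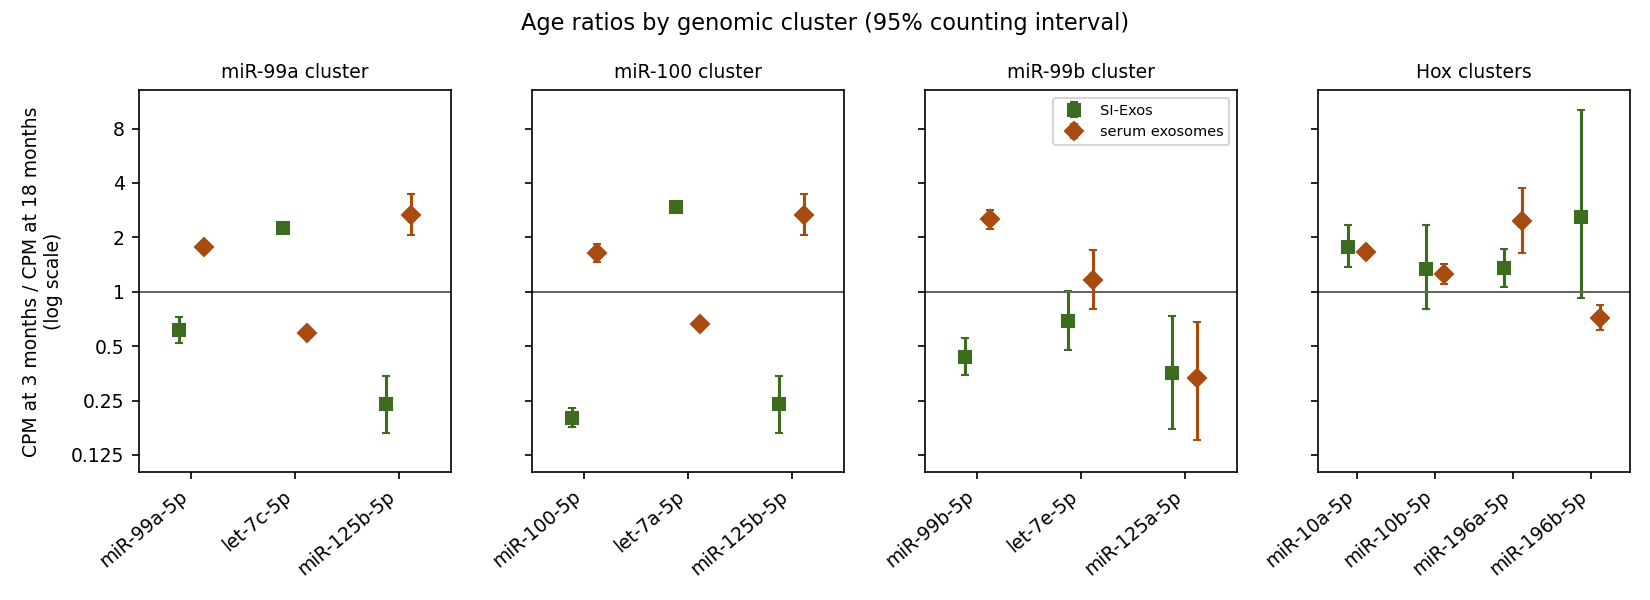
The age ratio of CPM, 3 over 18 months (vertical axis, log scale) is drawn with the 95% counting interval for the miRNAs of each genomic cluster, squares for SI-Exos and diamonds for serum exosomes; miR-125b-5p is drawn in both clusters that encode it. In SI-Exos let-7a-5p (2.93) and let-7c-5p (2.24) lie above 1 and miR-100-5p (0.200) and miR-99a-5p (0.617) below, and in serum these 4 lie on the opposite sides.

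The Hox cluster miRNAs other than the miR-10 family are miR-196a-5p, miR-196b-5p and miR-615-3p. In SI-Exos miR-196a-5p had 349 and 87 reads at 3 and 18 months, a ratio of 1.35 (interval from 1.06), and was not called. miR-196b-5p had 31 and 4 reads, a ratio of 2.61 (interval from 0.921), and was not called either. In serum miR-196a-5p had 92 and 35 reads and was called higher at 3 months, with a ratio of 2.46, whereas miR-196b-5p had 281 and 365 reads, a ratio of 0.720. miR-615-3p had at most 9 reads in a library and was not measured. Of the 2 measured in each source, 0 were called in SI-Exos and 1 in serum, beside 0 of the 2 miR-10 members in either and the shares of all miRNAs called given above (32.7% higher and 29.4% lower in SI-Exos, 18.3% and 25.9% in serum).

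The opposite arms of the members' hairpins were rare. Of 8 such arms, 3 were listed in SI-Exos and 6 in serum, and miR-10b-3p and miR-99a-3p were in neither table. In SI-Exos miR-10a-3p and miR-100-3p each had 7 reads at 3 months and 0 at 18 months, and miR-99b-3p had 0 and 1. In serum miR-99b-3p had 11 and 13 reads, the only arm that passed the minimum of 10 reads, and was not called, with a ratio of 0.791. As a share of the reads of both arms it made up 1.06% at 3 months (0.530 to 1.89) and 3.30% at 18 months (1.77 to 5.58). The arms specific to 1 miR-125b hairpin had 7 and 0 reads (miR-125b-1-3p) and 1 and 3 reads (miR-125b-2-3p) in serum, too few to say which locus the miR-125b-5p reads came from. In the SI-Exos table neither of these was listed.

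Beyond the 7 members, the seed CCCUGAG occurred in 2 other rows, both in the serum table. miR-351-5p, a relative of the miR-125 family that differs after the seed, had 8 and 6 reads. A predicted miRNA had 0 and 2 reads, and its sequence was identical to the first 18 bases of miR-125a-5p. Both are set below with the seed in capitals.
mmu-miR-351-5p: uCCCUGAGgagcccuuugagccug
predicted miRNA: uCCCUGAGacccuuuaac

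Adding these 2 reads to miR-125a-5p gave a serum age ratio of 0.312 in place of 0.332, called in the same direction. The seeds ACCCUGU and ACCCGUA occurred in no row other than those of the 5 members that define them.

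Levels of serum and SI-Exos are set side by side without a call, since the sources were deposited in separate tables. By CPM, miR-99a-5p was 5.78 times as high in serum as in SI-Exos at 3 months (5.24 to 6.39) and 2.02 times at 18 months (1.77 to 2.32). The miR-10 members had ratios of serum to SI-Exos of 1.27 and 1.36 for miR-10a-5p and of 2.07 and 2.22 for miR-10b-5p, so that for each the values at the ages were within the other's interval. miR-100-5p was 1.91 times as high in SI-Exos as in serum at 3 months (1.70 to 2.15) and 15.6 times at 18 months (13.9 to 17.5). miR-125a-5p was 6.42 and 5.98 times as high in SI-Exos. miR-99b-5p and miR-125b-5p had ratios of serum to SI-Exos of 1.52 and 1.08 at 3 months, and were 3.78 and 10.4 times as high in SI-Exos at 18 months. By RPM each ratio of serum to SI-Exos is 5.16 times as large at 3 months and 12.9 times at 18 months, and then only miR-125a-5p at 3 months (0.805) and miR-100-5p at 18 months (0.828) stayed below 1. These RPM values are given without intervals, and that of miR-125a-5p rests on 11 reads in serum and 18 in SI-Exos.

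The miRNAs whose pattern over the 4 libraries was nearest to each member were sought among 140 known miRNAs, by the Euclidean distance of log2 CPM after centring. miR-10a-5p was nearest to miR-34a-5p (0.40) and miR-872-5p (0.48), beside a median distance of 2.73. For miR-10b-5p they were miR-221-3p (0.33) and again miR-872-5p (0.37), and for miR-99a-5p miR-23a-3p (0.62) and miR-148a-3p (0.76). miR-99b-5p lay nearest to miR-574-3p (0.78) and miR-320-3p (0.88), and miR-125b-5p to miR-320-3p (1.09) and miR-497a-5p (1.43). The pattern of miR-100-5p was nearest to miR-92b-3p (1.06) and miR-497a-5p (1.16), and that of miR-125a-5p to miR-92b-3p (0.80) and miR-195a-5p (0.89). With 4 points that share their libraries and depths, these distances describe likeness only.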

How the data were processed

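Small RNA of exosomes isolated by ultracentrifugation was sequenced as 4 libraries, 1 per source and age, so groups have no replicates. The authors deposited read counts per miRNA and RPM (reads scaled to their total reads) in 1 table per source. Per the submitters' processing notes, reads were aligned with Bowtie2 2.2.9 to GRCm38, and the assignment of reads that match several miRNAs is not stated in the sources. The log2 fold, p-value and FDR columns of the deposited tables hold the authors' comparisons and were not used. Sample columns without a library numbered 0.

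Counts were scaled to the sum of each column (CPM). Each ratio of the ages has a 95% interval by the exact Clopper-Pearson method, applied to the 2 counts given their sum. Measured miRNAs were those that reached 10 reads at one of the ages. They were called if the ratio was 2-fold or more, or one age had 0 reads, and 1 lay outside the interval. Shares carry exact binomial intervals, and odds ratios exact conditional intervals. Reads carry no molecular identifiers, so intervals and the limit of 3 reads for a count of 0 cover counting error only. The steps were tested on simulated data. Alternatives were TMM (edgeR 4.0.16) and DESeq2 1.42.0 factors (R 4.3.3), the authors' RPM, sums without the 5 most abundant miRNAs or with known miRNAs alone, other minimums and folds, and, added after the data were seen, the reads of a predicted miRNA counted with miR-125a-5p. Sequences were matched to RefSeq and positions taken from GENCODE M21. Scripts used Python 3.11.15, pandas 2.3.3 and scipy 1.17.1.

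The members and lists were chosen with earlier results of these data known. Named miRNAs were all 7 members, a list of their other arms, cluster partners, Hox cluster and same-seed rows, and the cell type markers. For each member the 2 known miRNAs outside the 7 that were nearest in log2 CPM were also named (0.5 counts added, with 10 reads in 1 library of each source).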

Additional observations from a re-analysis of the deposited data

Results flagged for a closer look

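Of the 7 members, miR-99b-5p and miR-125b-5p were called in opposite directions by age in the 2 sources, as were 24 (15.4%) of the 156 miRNAs measured in both. The ratio of 3 to 18 months of miR-99b-5p was 0.438 in SI-Exos and 2.52 in serum exosomes. That of miR-125b-5p was 0.239 in SI-Exos and 2.67 in serum exosomes. Each value compares 1 library with 1 library, and the difference between the sources was not tested. By the authors' RPM the SI-Exos ratios were 1.22 (0.964 to 1.54) and 0.663, neither of them called, while the serum ratios were 2.79 and 2.95.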

How the results depend on the processing

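No paired analysis was possible because the labels give no replicate numbers and each group is 1 library. Scaling limits the SI-Exos calls: against CPM the log2 ratio of every miRNA moved by 0.07 with TMM factors, 0.52 with DESeq2 size factors, 1.47 by RPM, -0.15 without the 5 most abundant miRNAs and -0.13 with known miRNAs alone, and in serum by 0.19, 0.10, 0.15, 0.39 and 0.00. Shares and ratios of miRNAs within a library do not depend on it. In SI-Exos, members called higher at 3 months, 0 by CPM, numbered 1 with DESeq2 size factors (miR-10a-5p, beside 46.7% of all miRNAs), 2 by RPM (both miR-10 members, 61.2%) and 1 at 1.5-fold (36.9%). Members called lower, 4 by CPM, numbered 2 with DESeq2 size factors (23.4% of all) and at 4-fold (21.03%), miR-100-5p and miR-125b-5p both times, and 0 by RPM (14.5%). By RPM miR-99a-5p turned direction (1.71, 1.45 to 2.02) and miR-99b-5p crossed 1 with an interval that held it (1.22, 0.964 to 1.54). The miR-10 seed ratio in SI-Exos was 2.41 with DESeq2 size factors and 4.69 by RPM, the miR-125 ratio 0.372 and 0.723, and the miR-99/miR-100 ratio 0.453, 0.879, 0.285 without the 5 most abundant miRNAs and 0.290 with known miRNAs alone. In serum, members called higher, 2 by CPM, numbered 5 without the 5 most abundant miRNAs (26.7% of all) and at 1.5-fold (23.1%) and 0 at 4-fold (8.76%). The 1 called lower, miR-125a-5p, was lost with a minimum of 50 reads, which it does not reach, and at 4-fold, leaving 0 (26.5% and 7.57% of all). The serum seed ratios with TMM factors, DESeq2 size factors, RPM and without the 5 most abundant miRNAs were 1.76, 1.64, 1.70 and 2.02 for miR-10 and 2.06, 1.93, 1.999 and 2.36 for miR-99/miR-100, and the last setting gave 2.64 for miR-125. Scaling multiplies all ratios of a source by 1 factor, which gives these shifts. The other 62 values of family ratios, shares and counts of calls stayed near those reported. Some of them could not move. A setting that counted every known row with the same seed added no row in SI-Exos. In serum it added none to the miR-10 and miR-99/miR-100 seeds. Of the remaining values for single members 24 moved beyond the counting interval and 46 did not. Among the 62, members called lower in SI-Exos numbered 5 at 1.5-fold, with miR-99a-5p added (32.7% of all). They numbered 3 with a minimum of 50 reads, without miR-125a-5p (25.2%). Members called higher in serum numbered 3 with TMM factors, with miR-99a-5p added (20.7%). With 11 to 31 reads per library, miR-125a-5p was limited by depth.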
